A study of Mus musculus with 12 samples.

Results

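The genes described here encode the actin filament and the proteins that coat and tie filaments together. They are the 4 tropomyosin genes Tpm1, Tpm2, Tpm3 and Tpm4, the cytoplasmic actin genes Actb and Actg1, and the crosslinker genes Actn1 and Flna. They were taken by symbol from the deposited count tables, 8 of 26264 gene rows, and all 8 passed the filter on low counts that kept 17002 genes. RNA of isolated glomeruli was sequenced in 12 libraries of male mice aged 8 weeks, 3 libraries in each of 4 groups. The groups were untreated BALB/cAjcl (AJcl) at baseline, untreated BALB/cByJcl (ByJcl) at baseline, and each substrain at Day 5 after 1 retro-orbital injection of adriamycin (ADR, doxorubicin) at 10 mg/kg. Both are inbred substrains of the albino BALB/c mouse without a transgene, and ADR is an anthracycline used to injure podocytes. Glomeruli were collected with magnetic beads lodged in their capillaries, which enriches for podocytes, endothelium and mesangium and leaves some tubule. The labels do not say that each library came from a separate animal, so the p-values measure the spread between these libraries.

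Actin polymerizes into filaments, and tropomyosin dimers lie along them and set which myosins, severing factors and capping proteins can reach the filament. Non-muscle cells make many tropomyosin isoforms from 4 genes by alternative promoters and splicing. Alpha-actinin ties filaments into loose bundles and filamin A into orthogonal networks, and both link actin to the membrane. In the kidney the podocyte foot process rests on such an actin scaffold, while mesangial and smooth muscle cells hold contractile bundles.

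The genes were chosen by the substrain by ADR interaction of these same counts, that is, by how much further a gene moved between baseline and Day 5 in ByJcl than in AJcl. Interaction values are therefore given as a description without a p. The pairwise comparisons use the same libraries and are no independent evidence of a direction.

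Depth was even, with 42198416 to 54687045 counts per library. One AJcl Day 5 library, A-ADR1 (replicate 1), was set aside by the study for reduced glomerular purity and is outside the fit, so that group holds 2 libraries in it, and 1 where another AJcl Day 5 library is also left out. A lone library is then assumed to vary like those of the other groups. Its values are given beside the rest. Summed over 10 marker genes, podocyte RNA was 10989 to 23718 CPM per library, where CPM are counts scaled to a common library total. Endothelial RNA (7 genes) was 4620.1 to 9227 CPM and mesangial RNA (6 genes) 1805 to 2526 CPM. The sums hold only markers that passed the filter on low counts, which Ren1 of the mesangial list did not. Tubular RNA was also present, and A-ADR1 had the highest distal nephron sum, 2004 CPM against 92.1 to 1641 CPM elsewhere. Its proximal tubule sum, 2697 CPM, was below the 2803 CPM of AJcl baseline replicate 3, which was kept. Its podocyte sum, 12455 CPM, was above those of ByJcl Day 5 replicates 2 and 3, 10989 and 11613 CPM. Baseline and Day 5 counts were deposited as separate tables, so the effect of ADR and any difference between the tables cannot be told apart.

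The promoters of 4 of the genes are shown. Tpm1, Tpm4 and Actg1 rose together in ByJcl after ADR, and Flna stands beside them as a crosslinker that did not pass the test. Tpm3 and Actn1 also rose there, and their promoters are not shown. Each promoter shown is the 250 bases before the start site, 5′ to 3′, from RefSeq in build GRCm38.p6. Capitals mark a CArG box, the element bound by serum response factor (SRF), or GGAATG and its reverse complement CATTCC, the core bound by TEAD factors.
Tpm1 (chr9:67049214-67049463, minus strand): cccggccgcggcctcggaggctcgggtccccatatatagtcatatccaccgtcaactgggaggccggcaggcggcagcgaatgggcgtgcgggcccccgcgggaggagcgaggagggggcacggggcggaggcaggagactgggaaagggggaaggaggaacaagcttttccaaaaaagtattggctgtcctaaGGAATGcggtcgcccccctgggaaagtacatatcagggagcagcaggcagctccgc
Tpm4 (chr8:72135038-72135287, plus strand): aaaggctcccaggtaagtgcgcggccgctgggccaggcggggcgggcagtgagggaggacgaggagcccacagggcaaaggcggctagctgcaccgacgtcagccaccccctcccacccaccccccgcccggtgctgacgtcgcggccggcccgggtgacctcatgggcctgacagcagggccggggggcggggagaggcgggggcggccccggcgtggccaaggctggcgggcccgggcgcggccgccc
Actg1 (chr11:120348496-120348745, minus strand): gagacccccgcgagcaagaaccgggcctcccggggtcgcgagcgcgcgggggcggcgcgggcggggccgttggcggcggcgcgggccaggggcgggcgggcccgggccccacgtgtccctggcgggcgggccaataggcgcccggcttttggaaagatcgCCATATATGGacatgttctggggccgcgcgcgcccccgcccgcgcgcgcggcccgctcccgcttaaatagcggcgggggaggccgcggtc
Flna (chrX:74246535-74246784, minus strand): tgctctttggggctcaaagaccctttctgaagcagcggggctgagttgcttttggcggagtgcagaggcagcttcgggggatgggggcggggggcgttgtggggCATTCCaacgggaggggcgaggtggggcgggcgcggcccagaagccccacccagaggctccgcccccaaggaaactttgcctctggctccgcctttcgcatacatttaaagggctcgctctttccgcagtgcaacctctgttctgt
The Actg1 promoter held a CArG box, CCATATATGG, that starts 90 bases before the start site. Tpm1 held GGAATG at 56 bases and Flna held CATTCC at 146 bases before the start site. Both motifs were searched on both strands in windows of 300 bases, which run 50 bases past the start, and the windows matched 7 of the 8 genes by symbol, with 8 promoters. No motif was found in the windows of Tpm2, Tpm3, Tpm4 or Actn1, which says only that these letters are not in these windows. The promoters printed thus include every one in which a motif was found, and no share is to be read from them. Of all 32851 promoters in the table, 1.63% held a CArG box and 14.7% held GGAATG or its complement. Of the 104 promoters of 82 other actin cytoskeleton genes with an entry, 10.6% held a CArG box and 26.0% held GGAATG or its complement.

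Levels between genes were compared as CPM per kilobase of exon, with exon lengths from the GENCODE annotation of GRCm39. At baseline Actb stood at 671 ± 97.3 CPM per kilobase in AJcl (SD, n = 3) and 657 ± 54.6 in ByJcl (SD, n = 3), and it was the highest of the 8 in each group. Actg1 followed at 253 ± 27.9 and 229.7 ± 11.7 CPM per kilobase (SD, n = 3 each). These 2 places held with the longest transcript of each gene as its length, a setting added after seeing the data, and the places after them did not all hold. Per exon length, Tpm4 and Flna came next and overlapped in each of the 4 groups, followed by Tpm1 at rank 5 and Actn1 at rank 6, neither overlapping its neighbours over the 11 libraries. Per longest transcript, Tpm4 was above Flna without overlap, Tpm1 overlapped Flna in all groups but ByJcl at baseline and had the higher mean at Day 5 (in ByJcl 167 ± 30.0 against 139 ± 30.7 CPM per kilobase, SD, n = 3 each), and Tpm3 overlapped Actn1. With A-ADR1, Tpm1 also overlapped Flna per exon length in AJcl at Day 5.

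Tpm2 and Tpm3 were lowest per exon length, and their order depended on the length used and on A-ADR1. At baseline in AJcl, Tpm2 stood at 16.5 ± 1.43 and Tpm3 at 12.4 ± 0.606 CPM per kilobase of exon (SD, n = 3 each), but at 21.4 ± 1.84 and 30.2 ± 1.48 per kilobase of the longest transcript. In ByJcl at baseline they overlapped per exon length. At Day 5 Tpm3 lay above Tpm2 in the libraries of the fit, at 14.8 ± 2.94 against 9.93 ± 1.13 CPM per kilobase of exon in AJcl (SD, n = 2) and 18.9 ± 0.547 against 14.4 ± 2.04 in ByJcl (SD, n = 3). A-ADR1 had the reverse order, with Tpm2 at 16.02 and Tpm3 at 11.2 CPM per kilobase of exon, so that both genes overlapped in AJcl over all 3 libraries.

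Of the tropomyosins, Tpm1, Tpm4 and Tpm3 rose between baseline and Day 5 in ByJcl and Tpm2 did not pass the test, with TMM and with RLE scaling. In AJcl none of the 4 was called in this fit, and Tpm2 was called as lower under some of the alternatives, RLE scaling among them. A gene is called here when its p from edgeR's quasi-likelihood test, adjusted by Benjamini-Hochberg over all 17002 genes, is below 0.05. From here on, single-gene levels are CPM after TMM scaling, a correction for differences in RNA composition between libraries.

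Tpm1 encodes a tropomyosin of stress fibres and of striated and smooth muscle, and lies on chromosome 9 of GRCm39 from 66929870 to 66956953. Its level was 372, 363 and 343 CPM in the AJcl baseline libraries and 297, 299 and 334 CPM in ByJcl at baseline. At Day 5 it was 351 and 519 CPM in AJcl, with 469 CPM in A-ADR1, and 548, 694 and 791 CPM in ByJcl. Each ByJcl Day 5 library was thus above all other libraries, while the AJcl Day 5 libraries reached from within the baseline range to well above it. The rise in ByJcl was 2.22-fold, a log2 fold change (log2FC) of 1.15 (SE 0.17, edgeR adjusted p = 0.00306), the largest of the 8 genes. In AJcl the log2FC was 0.30 (SE 0.18, edgeR adjusted p = 0.67), and it turned to -0.06 without AJcl Day 5 replicate 3. ByJcl exceeded AJcl at Day 5 by a log2FC of 0.66 (SE 0.19, edgeR adjusted p = 0.184), which was 0.39 without AJcl Day 5 replicate 2 and 1.01 without replicate 3, fits with 1 AJcl library at Day 5.

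Tpm4, on chromosome 8 from 72884018 to 72906987, encodes a cytoplasmic tropomyosin of non-muscle cells. Its baseline level was alike in both substrains, at 487, 439 and 409 CPM in AJcl and 428, 452 and 461 CPM in ByJcl. At Day 5 the AJcl libraries held 360.3 and 405 CPM, with 429 CPM in A-ADR1, and the ByJcl libraries 590.4, 756 and 712 CPM. Both AJcl libraries in the fit were below all AJcl baseline libraries and all ByJcl libraries above theirs, but A-ADR1 fell inside the AJcl baseline range. Tpm4 rose in ByJcl by a log2FC of 0.64 (SE 0.12, edgeR adjusted p = 0.00807), and its log2FC in AJcl was -0.20 (SE 0.13, edgeR adjusted p = 0.715). It was the only one of the 8 genes called between the substrains at Day 5, 1.82-fold higher in ByJcl, with a log2FC of 0.87 (SE 0.14, edgeR adjusted p = 0.0433). That call held with A-ADR1 in the fit (log2FC 0.81, adjusted p = 0.0176, edgeR) and with DESeq2, but it was lost in 7 of the 11 fits that each left out 1 library. One of these, without AJcl Day 5 replicate 2 (log2FC 0.76, adjusted p = 0.67, edgeR), leaves 1 AJcl library at Day 5, whose spread is taken from the other groups. The call was also lost without AJcl baseline replicate 2, any of the 3 ByJcl baseline libraries, or ByJcl Day 5 replicate 2 or 3, where the adjusted p from edgeR was 0.0692 to 0.114 at a log2FC of 0.79 to 0.87.

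Tpm3, on chromosome 3 from 89979949 to 90008226, encodes a tropomyosin made in most non-muscle cells and in slow muscle. Baseline libraries held 95.8 to 106 CPM in AJcl and 99.7 to 116 CPM in ByJcl. At Day 5 the AJcl libraries held 103 and 137 CPM, with 90.8 CPM in A-ADR1, and the ByJcl libraries 153, 158 and 149 CPM. The ByJcl Day 5 values lay close together and above all others, whereas AJcl spanned its own baseline. Tpm3 rose in ByJcl by a log2FC of 0.54 (SE 0.12, edgeR adjusted p = 0.0155), against 0.28 (SE 0.13, edgeR adjusted p = 0.508) in AJcl. With 1 library left out, the AJcl value ran from 0.0164 to 0.481. The call in ByJcl was lost without ByJcl baseline replicate 1 (adjusted p = 0.0639, edgeR) or 3 (0.052) and without ByJcl Day 5 replicate 2 (0.0604). Those of Tpm1 and Tpm4 held whichever of the 11 libraries was left out.

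Tpm2, on chromosome 4 from 43514697 to 43524949, encodes a tropomyosin abundant in smooth and skeletal muscle. Its level at Day 5 was lowest in the 2 AJcl libraries of the fit. Levels were 76.8, 68.5 and 65.1 CPM in AJcl and 54.5, 61.2 and 62.2 CPM in ByJcl at baseline, then 45.5 and 38.7 CPM in AJcl and 52.7, 59.8 and 69.9 CPM in ByJcl at Day 5. A-ADR1 held 67.9 CPM, inside the AJcl baseline range and above 2 of the ByJcl Day 5 libraries, so the separation rests on the 2 remaining AJcl libraries. In AJcl the log2FC of Day 5 against baseline was -0.72 (SE 0.13, edgeR adjusted p = 0.0511), just outside the threshold. DESeq2's Wald test called it (adjusted p = 0.000204), as did edgeR with RLE size factors (0.0467), without the filter (0.0342) or without ByJcl Day 5 replicate 1 (0.028) or 3 (0.0347). With A-ADR1 the log2FC was -0.47 (adjusted p = 0.411, edgeR). In ByJcl it was 0.06 (SE 0.11, edgeR adjusted p = 0.776). At Day 5 ByJcl was above AJcl by a log2FC of 0.56 (SE 0.13, edgeR adjusted p = 0.118), which was 0.29 (adjusted p = 0.41, edgeR) with A-ADR1.

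**Figure D1:**
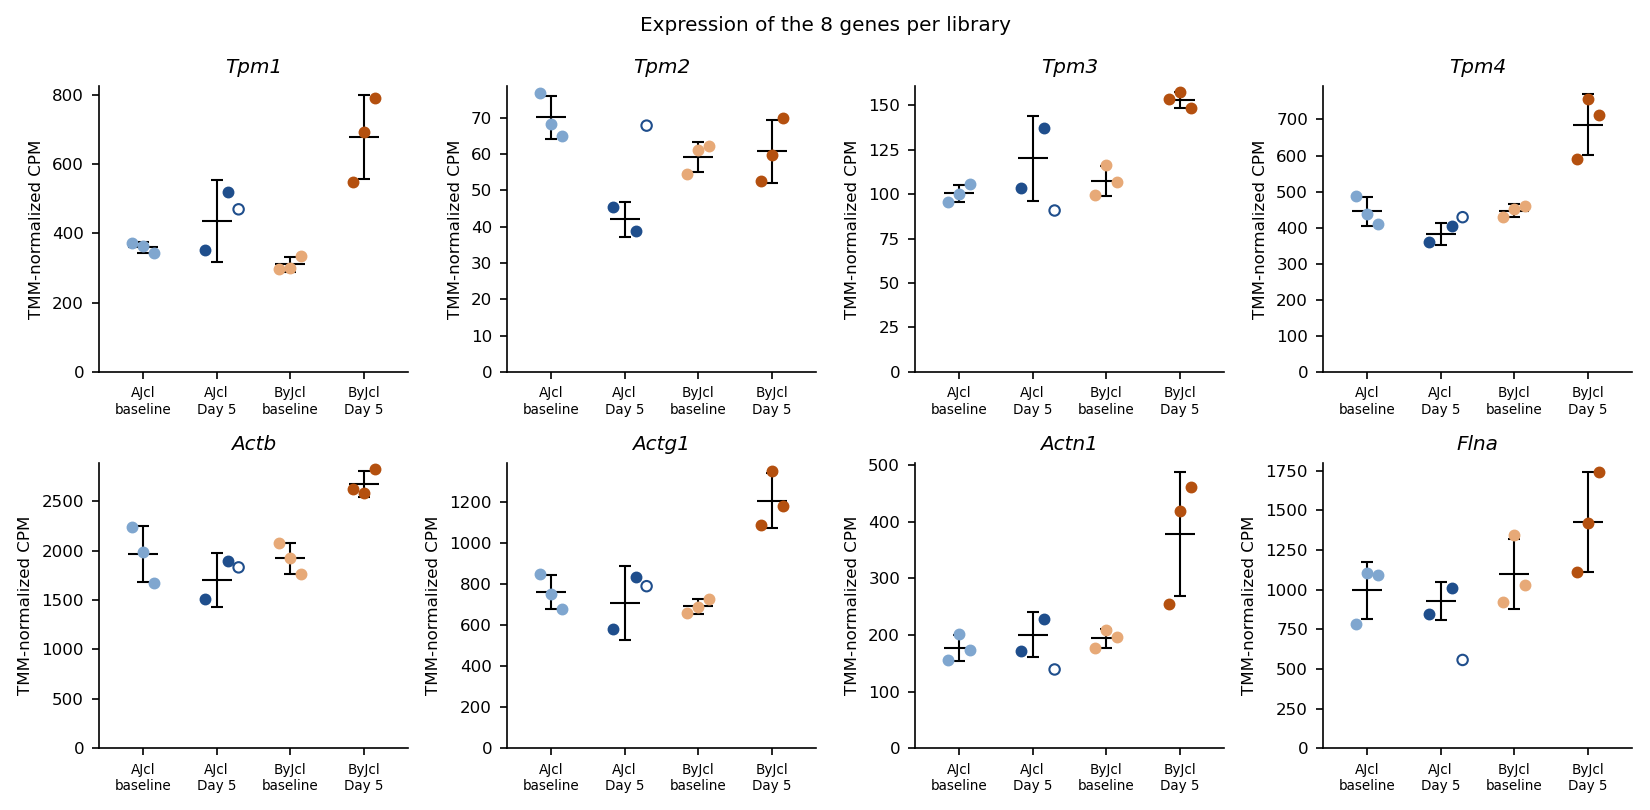
TMM-normalized CPM (linear axis from 0) of the 8 genes in each library of AJcl and ByJcl mice at baseline and at Day 5 after ADR, where filled points are the 11 libraries of the fit, the open point is A-ADR1, and the line and bars are the mean and SD of the filled points. Tpm1 reaches 548 to 791 CPM in ByJcl at Day 5, above every other library, while Tpm2 is lowest in AJcl replicates 2 and 3 at Day 5 (45.5 and 38.7 CPM) with A-ADR1 at 67.9 CPM.

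The actin genes had the highest levels of the set per kilobase, though the mean of Flna was above that of Actg1 in CPM, and Actg1 was called in ByJcl while Actb stayed just outside the threshold. Actg1 encodes gamma cytoplasmic actin and lies on chromosome 11 from 120236512 to 120239617. It was at 847, 753 and 679 CPM in AJcl and 658, 686 and 728 CPM in ByJcl at baseline. At Day 5 it was at 579 and 833 CPM in AJcl, with 789 CPM in A-ADR1, and at 1084, 1349 and 1179 CPM in ByJcl. All ByJcl Day 5 libraries were above all other libraries, and AJcl overlapped its own baseline. Actg1 rose in ByJcl 1.78-fold, a log2FC of 0.83 (SE 0.16, edgeR adjusted p = 0.00937), against -0.08 (SE 0.18, edgeR adjusted p = 0.922) in AJcl, a value that turned to 0.17 without AJcl Day 5 replicate 2. The call in ByJcl held whichever of the 11 libraries was left out. At Day 5 ByJcl was above AJcl by a log2FC of 0.79 (SE 0.18, edgeR adjusted p = 0.115).

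Actb, the beta cytoplasmic actin often used as a reference gene, lies on chromosome 5 from 142888870 to 142892509. It held 2238, 1980.2 and 1669.8 CPM in AJcl and 2078, 1927 and 1759 CPM in ByJcl at baseline. At Day 5 the values were 1509 and 1894 CPM in AJcl, with 1829.8 CPM in A-ADR1, and 2624, 2579 and 2821 CPM in ByJcl. ByJcl at Day 5 again did not overlap any other group, but the baseline libraries spread widely. The log2FC in ByJcl was 0.50 (SE 0.15, edgeR adjusted p = 0.0578), a 1.42-fold difference that DESeq2's Wald test called (adjusted p = 0.00525). In edgeR it was called with RLE size factors (adjusted p = 0.0458) and without AJcl baseline replicate 1 (0.0335) or AJcl Day 5 replicate 2 (0.0444) or 3 (0.0447). It was -0.19 (SE 0.17, edgeR adjusted p = 0.8) in AJcl, and 0.68 (SE 0.17, edgeR adjusted p = 0.149) between the substrains at Day 5. With 1 library left out, the AJcl value ran from -0.405 to -0.0201 and the Day 5 value from 0.503 to 0.888.

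Of the crosslinkers, Actn1 rose in ByJcl and Flna did not pass the test in any comparison. Actn1 encodes the alpha-actinin of stress fibres and focal adhesions and lies on chromosome 12 from 80212233 to 80307547. Its baseline levels were 156, 202 and 174 CPM in AJcl and 177, 209 and 196 CPM in ByJcl, and its Day 5 levels 173 and 229 CPM in AJcl, with 139 CPM in A-ADR1, and 255, 418 and 461 CPM in ByJcl. The lowest ByJcl Day 5 library was still above every other library, though far below the other two. Actn1 rose in ByJcl 1.98-fold, a log2FC of 0.99 (SE 0.20, edgeR adjusted p = 0.013), against 0.20 (SE 0.22, edgeR adjusted p = 0.842) in AJcl, a value that turned to -0.07 without AJcl Day 5 replicate 3. The call in ByJcl was lost without ByJcl baseline replicate 1 (adjusted p = 0.0508, edgeR) or ByJcl Day 5 replicate 2 (0.0563). At Day 5 its log2FC between the substrains, 0.93 (SE 0.23, edgeR adjusted p = 0.139), was the largest of the 8 and did not pass the test.

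Flna encodes filamin A, which also tethers integrins to actin, and lies on chromosome X from 73265347 to 73293456. Its baseline libraries held 786, 1106 and 1094 CPM in AJcl and 920.4, 1346 and 1027 CPM in ByJcl. At Day 5 the AJcl libraries held 846 and 1012 CPM, with 557 CPM in A-ADR1, and the ByJcl libraries 1113, 1418 and 1742 CPM. The lowest ByJcl Day 5 library lay inside the ByJcl baseline range, so those groups overlapped. The log2FC was 0.40 (SE 0.20, edgeR adjusted p = 0.224) in ByJcl, -0.08 (SE 0.22, edgeR adjusted p = 0.945) in AJcl and 0.64 (SE 0.23, edgeR adjusted p = 0.267) between the substrains at Day 5.

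Counted over the comparisons, most calls by edgeR in the 11-library fit were in ByJcl after ADR. Between baseline and Day 5 in ByJcl, 5 of the 8 genes rose and none fell, beside 10.6% of all tested genes called, 5.75% as higher. The median log2FC of the 8 was 0.59, beside 0.01 over all genes. The Day 5 libraries did not overlap the baseline libraries for 6 of the 8 genes, all higher, beside 15.9% of all genes. Without ByJcl baseline replicate 1 or ByJcl Day 5 replicate 2, 3 of the 8 were called, where 841 and 680 of all genes were called against 1800 in the 11-library fit. DESeq2 called 6 of the 8 and 2694 of all genes.

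Between baseline and Day 5 in AJcl edgeR called 0 of the 8, beside 0.312% of all genes, with 2 of the 8 (Tpm2 and Tpm3) at an unadjusted p below 0.05, beside 9.8% of all genes. DESeq2 called 1 of the 8, Tpm2, and 301 of all genes. The log2FC were from -0.72 to 0.30 with a median of -0.08, 3 above 0 and 5 below. Tpm2 and Tpm4 were lower without overlap, beside 12.3% of all genes, and neither was so once A-ADR1 was counted, beside 6.51% of all genes.

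Between the substrains at baseline the 8 genes were near each other. edgeR called 0 of the 8, beside 0.159% of all genes, with 0 at an unadjusted p below 0.05, beside 8.34% of all genes. DESeq2 also called 0 of the 8, and 101 of all genes. Their log2FC of ByJcl relative to AJcl ran from -0.22 for Tpm2 to 0.16 for Flna. All ByJcl libraries were below all AJcl libraries for Tpm1 and Tpm2, beside 6.3% of all genes.

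Between the substrains at Day 5 edgeR called 1 of the 8, beside 0.165% of all genes, and all 8 log2FC were above 0, from 0.37 for Tpm3 to 0.93 for Actn1 with a median of 0.67. With 1 AJcl library at Day 5 the value of Tpm3 was 0.17 without replicate 2 and 0.63 without replicate 3. All 3 ByJcl libraries exceeded both AJcl libraries for the 8 genes, beside 15.1% of all genes. With A-ADR1 they exceeded all 3 AJcl libraries for 7, all but Tpm2, beside 9.03% of all genes. The number of calls depended on the libraries used. It was 0 in the 7 fits named above for Tpm4, in which 9 to 19 of all genes were called, against 28 in the 11-library fit. It was 3 (Tpm1, Tpm4 and Actg1) without AJcl Day 5 replicate 3, where 218 of all genes were called against a single AJcl library, and 2 (Actn1 and Tpm4) without ByJcl Day 5 replicate 1, where 33 were. DESeq2 called 6 (all but Tpm3 and Flna) and 555 of all genes.

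The interaction is the contrast that chose the genes, and its log2 values describe them only. They were 0.91 (SE 0.24) for Actg1, 0.85 (SE 0.25) for Tpm1, 0.84 (SE 0.18) for Tpm4, 0.79 (SE 0.30) for Actn1 and 0.78 (SE 0.17) for Tpm2. Actb stood at 0.69 (SE 0.23), Flna at 0.48 (SE 0.30) and Tpm3 at 0.26 (SE 0.17). The Tpm3 value ran from 0.0641 to 0.529 with 1 library left out. The Tpm2 value comes from the lower AJcl level and the Tpm1 value from the higher ByJcl level. No call is counted for the 8 genes here, since the contrast chose them. Of all 17002 genes edgeR called 0%, with 1363 at an unadjusted p below 0.05, and DESeq2 called 23.

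**Figure D2:**
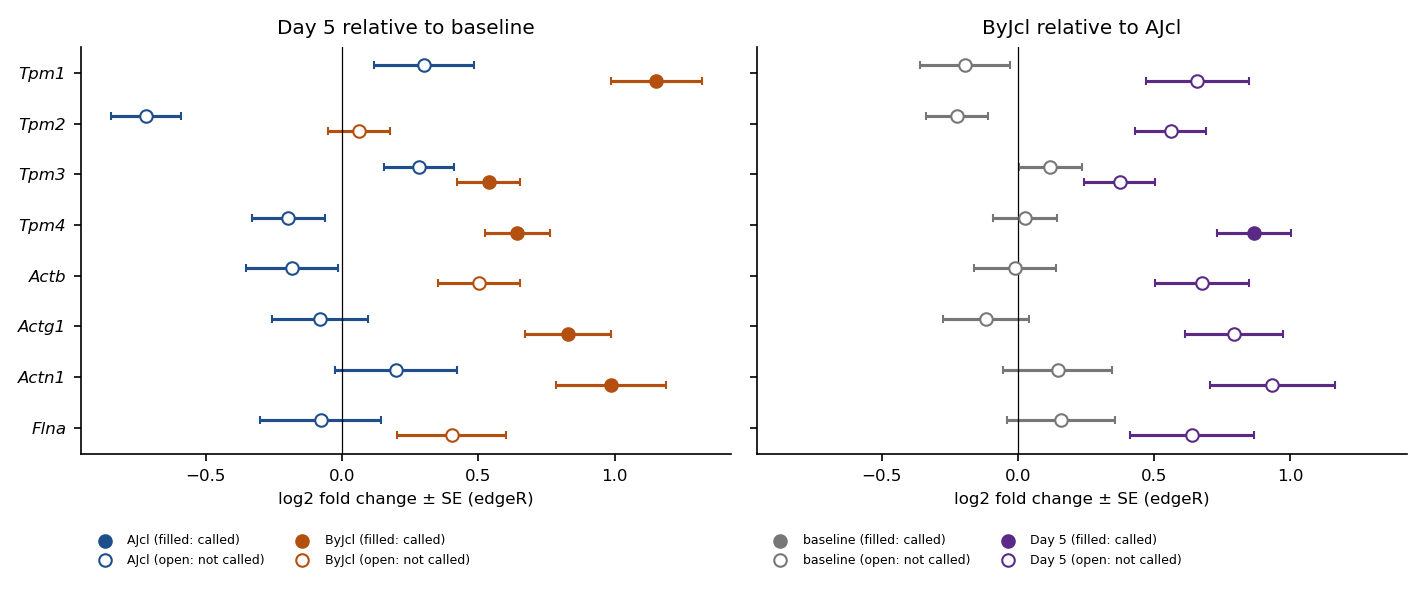
Log2 fold change with its standard error (bars) of the 8 genes from the 11-library edgeR fit, with Day 5 against baseline in each substrain on the left and ByJcl against AJcl at each time on the right, on a common axis where filled points are called and open points are not. On the left the ByJcl points run from 0.06 for Tpm2 to 1.15 for Tpm1 with 5 filled, and on the right all Day 5 points lie above 0 with Tpm4 filled.

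Ratios of 2 genes within a library do not depend on scaling, and they show which genes moved unequally. They were not tested, since they restate the levels that chose the genes. The ratio of Tpm1 to Tpm2 counts was 4.84, 5.31 and 5.27 in the AJcl baseline libraries and 5.44, 4.89 and 5.38 in those of ByJcl. At Day 5 it was 7.72 and 13.4 in AJcl, with 6.92 in A-ADR1, and 10.4, 11.6 and 11.3 in ByJcl. All 6 Day 5 libraries, A-ADR1 included, were above all 6 baseline libraries, so the balance between these 2 tropomyosins moved the same way in both substrains.

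The ratio of Tpm1 to Tpm4 counts behaved alike, at 0.763 to 0.838 in AJcl and 0.662 to 0.725 in ByJcl at baseline and at 0.974 and 1.28 in AJcl (1.09 in A-ADR1) and 0.918 to 1.11 in ByJcl at Day 5. Per length, Tpm1 made up 26.1% ± 0.743 of the RNA of the 4 tropomyosins in AJcl and 23.5% ± 0.934 in ByJcl at baseline (SD, n = 3 each), and 32.9% ± 4.33 (SD, n = 2) and 31.3% ± 2.32 (SD, n = 3) at Day 5. Tpm4 stayed the largest share in every library, between 49.5% and 60.2%. The sum of the 4 per length was 155 to 182 CPM per kilobase over the 6 baseline libraries, 146 and 179 in AJcl at Day 5 (179 in A-ADR1) and 228 to 288 in ByJcl at Day 5.

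Within the actin pair the split moved less. Actb made up 72.6% ± 0.811 of the per-length actin RNA in AJcl and 74.0% ± 2.58 in ByJcl at baseline (SD, n = 3 each), and 71.4% ± 1.98 (SD, n = 2) and 69.6% ± 2.85 (SD, n = 3) at Day 5. These shares overlapped between baseline and Day 5 in each substrain and between the substrains at each time. The ratio of tropomyosin to actin per length was 0.167 to 0.214 over all 12 libraries and overlapped between all groups. Among crosslinkers, the ratio of Flna to Actn1 counts was 5.05 to 6.43 over the baseline libraries and 3.39 to 4.90 over the Day 5 libraries, A-ADR1 included, without overlap.

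**Figure D3:**
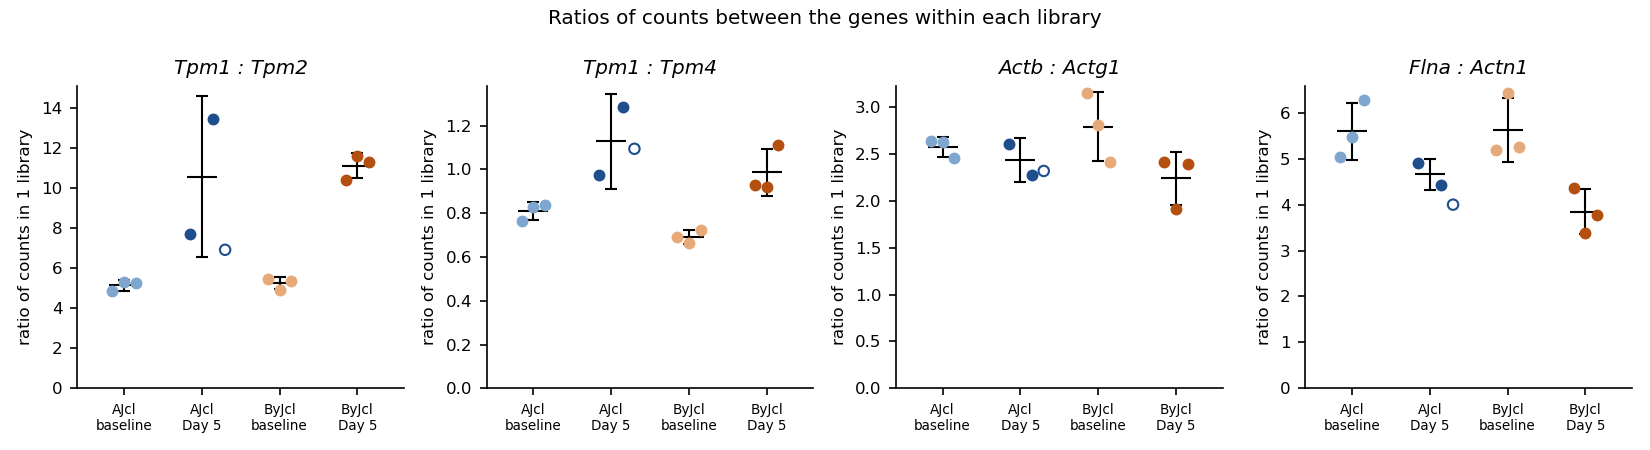
Ratios of counts between pairs of the 8 genes within each library (linear axes from 0) in AJcl and ByJcl at baseline and at Day 5 after ADR, with the 11 libraries of the fit filled, A-ADR1 open, and the mean and SD of the filled points as a line and bars. The Tpm1 to Tpm2 ratio is 4.84 to 5.44 in the baseline libraries and 6.92 to 13.4 in the Day 5 libraries of both substrains.

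Other genes of the actin cytoskeleton give the setting. Of 97 listed, 95 were tested, and between baseline and Day 5 in ByJcl 19 rose and 2 fell, beside the 5.75% of all genes called as higher and 10.6% called in all, with a median log2FC of 0.21. The counts of the single lists below stand beside the same shares. At Day 5, 3 were higher in ByJcl than in AJcl, beside 0.165% of all genes, with a median of 0.28. In AJcl after ADR edgeR called 0 of the 95, beside 0.312% of all genes, with a median of -0.05. An unadjusted p below 0.05 was found for 11, near the 9.8% of all genes. DESeq2 called 1 of the 95 and 301 of all genes. The counts moved with single libraries. In ByJcl 9 were called without ByJcl baseline replicate 2 or ByJcl Day 5 replicate 2, 11 without ByJcl baseline replicate 1 and 12 without replicate 3. At Day 5, 9 were called without AJcl Day 5 replicate 3, 1 without AJcl baseline replicate 1 or ByJcl baseline replicate 3, and 0 without AJcl baseline replicate 2 or 3, AJcl Day 5 replicate 2, ByJcl baseline replicate 1 or 2, or ByJcl Day 5 replicate 2 or 3.

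Of 8 other actins and tropomyosin partners Cald1 alone was called, and the median in ByJcl was -0.23, with 5 of the 8 values below 0. It encodes caldesmon, which binds actin, myosin and tropomyosin, and its level went from 684 ± 24.6 CPM at baseline to 1131 ± 115 CPM at Day 5 in ByJcl (SD, n = 3 each), for a log2FC of 0.75 (SE 0.11, edgeR adjusted p = 0.00327). In AJcl it was 656 ± 23.5 (SD, n = 3) and 668 ± 56.9 CPM (SD, n = 2). Acta2, the smooth muscle actin gene, had a log2FC of -0.42 (SE 0.14, edgeR adjusted p = 0.304) in AJcl and 0.11 (SE 0.12, edgeR adjusted p = 0.631) in ByJcl. The filament-end capping gene Tmod3 had a log2FC of -0.36 in ByJcl (adjusted p = 0.153, edgeR).

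Of 21 other crosslinkers and bundlers 2 rose and 1 fell in ByJcl, with a median of 0.23. Tagln, which encodes the actin-binding protein transgelin, went from 127 ± 28.7 to 308 ± 35.8 CPM (SD, n = 3 each), for a log2FC of 1.31 (SE 0.16, edgeR adjusted p = 0.00163). Tagln2, its paralog, rose by 0.81 (SE 0.11, edgeR adjusted p = 0.00207). At Day 5, Tagln (log2FC 1.15, adjusted p = 0.0436, edgeR), Tagln2 (0.78, adjusted p = 0.0436) and Cald1 (0.79, adjusted p = 0.0474) were also called between the substrains. Synpo fell by 1.54 (SE 0.21, edgeR adjusted p = 0.00234), from 3024 ± 129 to 1019 ± 166 CPM (SD, n = 3 each), and it encodes synaptopodin, an actin-associated protein of podocytes that is also on the podocyte marker list. Actn4, the podocyte alpha-actinin, had a log2FC of 0.21 (adjusted p = 0.366, edgeR).

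Among 24 nucleators and elongation factors 4 rose in ByJcl, with a median of 0.20. They were Inf2, Arpc1b, Arpc4 and Wasl, with log2FC from 0.33 to 0.61. Of 16 severing, capping and monomer-binding genes 4 rose, with a median of 0.24. Capg, a filament-end capping protein, rose by 1.40 (SE 0.22, edgeR adjusted p = 0.00351), the cofilin genes Cfl1 and Cfl2 by 0.58 and 0.73, and Pfn1, profilin, by 0.55.

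Of 14 genes of non-muscle myosin II and its regulators 3 rose and 1 fell in ByJcl, with a median of 0.23. Myl12a, a myosin regulatory light chain, rose from 443 ± 32.8 to 1125 ± 84.5 CPM (SD, n = 3 each), for a log2FC of 1.37 (SE 0.17, edgeR adjusted p = 0.00163). Its paralog Myl12b rose by 0.62 and the small GTPase gene Rhoc by 0.82, while Mylk, the kinase that phosphorylates the light chain, fell by 0.44 (SE 0.12, edgeR adjusted p = 0.0432). Of 12 SRF and MRTF regulators and targets 5 rose, with a median of 0.25. These were Ccn2 (1.09), Ccn1 (1.05), Pdlim7 (0.64), Csrp1 (0.57) and Zyx (0.45), of which Ccn1 and Ccn2 encode secreted matricellular proteins.

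**Figure D4:**
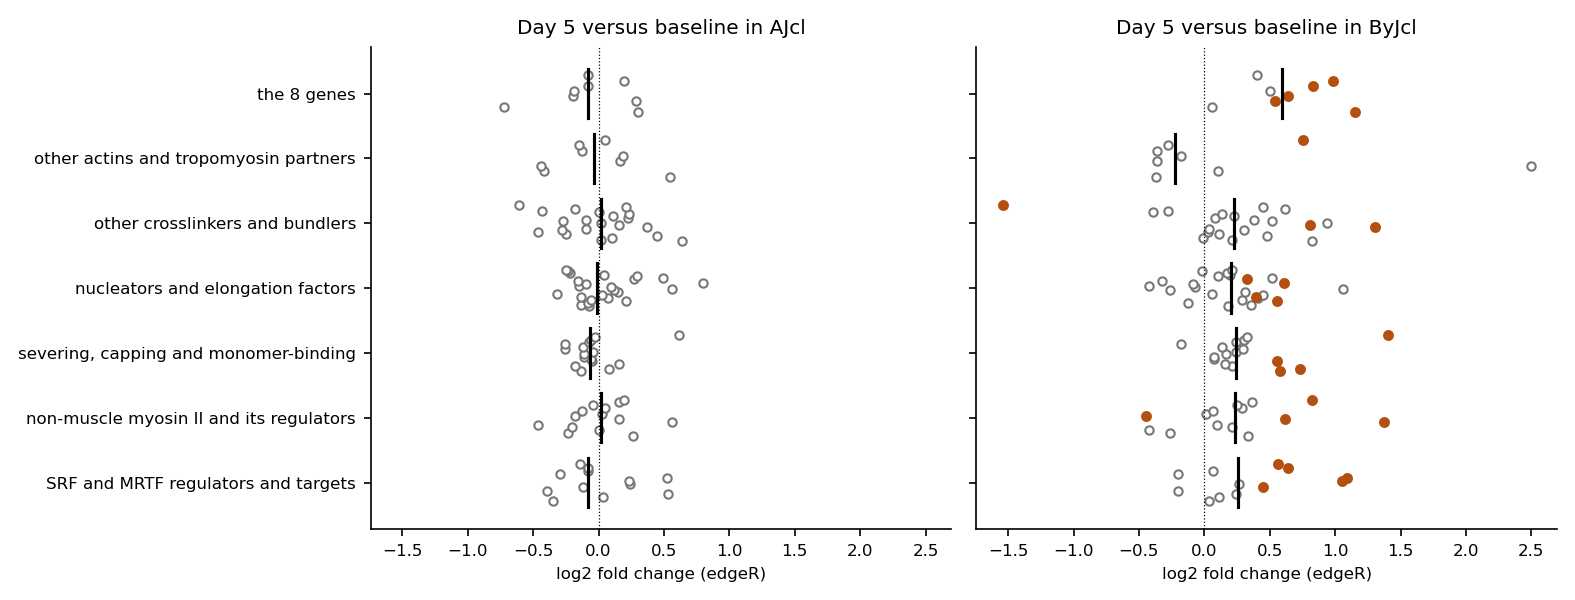
Log2 fold change of Day 5 against baseline from the edgeR fit for the 8 genes and 6 other lists of actin cytoskeleton genes in AJcl (left) and ByJcl (right) on a common axis, with 1 point per tested gene, filled where called, and the list's median as a bar. In ByJcl the median of the 8 genes is 0.59 and those of the other lists run from -0.23 to 0.25, and in AJcl no point is filled.

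The levels of the 8 genes were correlated across the 11 libraries as a description, over libraries that share groups and scaling. Pearson's r of log2 CPM was 0.57 to 0.95 between pairs of the 7 genes other than Tpm2, highest for Tpm4 with Actg1, and -0.26 to 0.37 for pairs with Tpm2. Of all tested genes the closest pattern to Tpm1 was that of Foxf2 (r = 0.97), to Tpm4 that of Csrp1 (0.98), to Actb that of the calponin gene Cnn2 (0.99) and to Actg1 that of Pgm2 (0.98). For Tpm3 it was Rin1 (0.98), for Actn1 Sbno2 (0.98), for Flna the histone gene H1f3 (0.94) and for Tpm2 Coprs (0.90). The next closest pair of genes was Nptx2 and Rtn4 for Tpm1, Rars and Zyx for Tpm4, Phlda1 and Cfl1 for Actb, and Rars and Nrm for Actg1. It was Rnd1 and Zc3h12a for Tpm3, Capn5 and the formin gene Diaph1 for Actn1, Sec24d and Actn4 for Flna, and Arl8b and Mir1839 for Tpm2.

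Markers of cell types moved with these comparisons. In bulk RNA fewer cells of a type and less RNA per cell cannot be told apart. Between baseline and Day 5 in ByJcl, 8 of 10 podocyte markers fell and Cdkn1c rose, and the podocyte sum went from 21365 to 23718 CPM to between 10989 and 14520 CPM without overlap. The AJcl sum was 17058 to 22800 CPM at baseline and 12455 to 18380 CPM at Day 5, which overlapped. The endothelial sum in ByJcl went from between 7641 and 9227 CPM to between 4620.1 and 6598 CPM, also without overlap, and of its 7 markers Ehd3 (log2FC -0.81, adjusted p = 0.0271, edgeR) and Flt1 (-0.54, adjusted p = 0.0471) fell. In AJcl it was 7087 to 7885 CPM at baseline and 5204 to 7381 CPM at Day 5, which overlapped. Between the substrains, 10 of 10 podocyte markers had a higher mean in ByJcl at baseline and 9 of 10 a lower one at Day 5, with a median log2FC of -0.56 at Day 5. The podocyte and endothelial sums were lower in the same ByJcl libraries in which 5 of the 8 genes were higher, and the part of cell composition in their levels was not tested.

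Of 7 tested smooth muscle markers in ByJcl after ADR, Tagln rose and Mylk fell, and Myh11, the defining smooth muscle myosin, had a log2FC of 0.11 (SE 0.12, edgeR adjusted p = 0.635). The smooth muscle sum in ByJcl was lower at Day 5, at 1543 to 1599 CPM against 1645 to 1774 CPM at baseline, and in AJcl it was 1221 to 1463 CPM against 1469 to 1712 CPM, without overlap in either substrain. The sum and the single genes did not go the same way in ByJcl, where 4 of the 7 markers had a log2FC above 0, with a median of 0.11. Mylk alone held 1116 ± 72.8 CPM of the ByJcl sum at baseline and 805 ± 72.6 CPM at Day 5 (SD, n = 3 each). At Day 5 the sums of the substrains did not overlap either, and those of ByJcl were the higher. Mesangial sums overlapped between all groups. Of 5 parietal epithelial markers Cd44 and Cldn1 rose in ByJcl, and of 7 immune markers Cd68, a macrophage gene, rose (log2FC 1.17, adjusted p = 0.0128, edgeR). Cd68 was at a low level, 2.99 ± 0.0268 CPM at baseline and 6.62 ± 1.18 CPM at Day 5 (SD, n = 3 each). Of the 7 immune markers in ByJcl, 4 had a log2FC above 0 and 3 below, the lowest -0.577.

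Immune sums lay apart between the substrains at baseline and at Day 5, and distal nephron sums at Day 5 only. At each time edgeR called 0 of the 7 immune, 5 distal nephron and 6 proximal tubule markers between the substrains. Of all genes it called 0.159% at baseline and 0.165% at Day 5. The immune sum was 53.4 to 94.7 CPM in ByJcl and 24.6 to 44.8 CPM in AJcl at baseline, and 62.3 to 115.6 and 14.4 to 51.3 CPM at Day 5, apart at both times, with a higher mean in ByJcl for all 7 markers. The distal nephron sum was 133 to 539 CPM in ByJcl and 523 to 1641 CPM in AJcl at baseline, which overlapped, and 92.1 to 499.9 and 796 to 2004 CPM at Day 5, which did not. The median log2FC of its 5 markers was -1.34 at baseline and -1.35 at Day 5. The proximal tubule sum overlapped at both times, at 287 to 1178 CPM in ByJcl and 1035 to 2697 CPM in AJcl at Day 5. Their part in the Day 5 difference of the 8 genes was not tested.

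Counts per gene do not separate the isoforms that each tropomyosin gene makes. They also share sequence with other annotated genes, some of which overlap them on the opposite strand. Of the 150-base windows of the annotated Actg1 transcripts, 31.7% occurred word for word in a transcript of another gene or its reverse complement, 6 genes in all, of which 0610009L18Rik overlaps Actg1. The share was 7.46% for Actn1 and 1.36% for Tpm1, all in overlapping antisense genes (Gm47766 and Gm60876, and Gm30639). It was 5.50% for Tpm3, all in Tpm3-rs7, and 1.78% for Tpm4, in Gm7809 and the overlapping Gm26586. Tpm2, Actb and Flna had none. The study describes its libraries as strand-specific, but how the counting treated shared and antisense reads is not given in the sources used here. Antisense transcripts overlap Tpm1, Tpm4, Actg1 and Actn1, so the levels of genes with shared or overlapping sequence carry that uncertainty.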

How the data were processed

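RNA of isolated glomeruli was sequenced as paired reads in 12 libraries, and the deposited values are raw counts per gene, made by the authors with FastQC, Trimmomatic, STAR and featureCounts on build GRCm39, as the submitters' processing notes name them. The baseline and the Day 5 libraries are in separate tables of counts. The study describes its libraries as strand-specific and selected by poly(A). The gene annotation and the strand setting of the counting are not given in the sources used here. Of counts between 1 and 49, 77.1% to 82.9% were even numbers in each library, so the number of independent fragments may be below the count.

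Groups were taken from the sample labels. Counts were modelled in R 4.3.3 with edgeR 4.0.16, with TMM factors, filterByExpr, 1 coefficient per group, quasi-likelihood tests and Benjamini-Hochberg adjustment over all 17002 genes kept, in 11 libraries. A gene was called at an adjusted p below 0.05. A-ADR1 was left out of the fit, as in the study. The alternatives were all 12 libraries, DESeq2 1.42.0 (Wald test), RLE factors, no filter on low counts, a replicate block, each library left out in turn, and the longest transcript as gene length for the levels and shares per length. Summaries used Python 3.11.15 with pandas 2.3.3, and plots matplotlib 3.10.9. Correlations used log2 CPM with a prior count of 2. The code was tested on simulated data.

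The members and the gene lists were chosen with earlier results of these data known. The genes named from the lists are those called, up to 5 in each direction, list and comparison, by smallest adjusted p, and the 3 genes that correlated best with each member. Acta2, Tmod3, Actn4 and Myh11 fall outside this rule and were added after their values were seen. Replicate numbers only share a number, since libraries with the same number deviated from their groups with correlations of only -0.24 to 0.37. No replicate pair agreed within sampling noise, the chi-square per degree of freedom being 44.2 to 275.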

Additional observations from a re-analysis of the deposited data

Results flagged for a closer look

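For Tpm4 and 3 of the 95 list genes (3.16%, beside 0.965% of all 17002 genes), all Day 5 libraries in the fit lay on opposite sides of the baseline libraries in the 2 substrains. Tpm4 had a log2FC of Day 5 against baseline of -0.20 in AJcl and 0.64 in ByJcl, Wdr1, a cofactor of cofilin in filament disassembly, of -0.26 and 0.30, and Myl6, the essential light chain of non-muscle myosin, of -0.20 and 0.21. Acta1, the skeletal muscle actin, had 0.54 and -0.37 at group means of 0.130 to 0.231 CPM, too low to read a level from. Tpm4 is among the genes chosen by the interaction, so that its difference is a description, and the interaction term of edgeR called none of the other 3 (adjusted p 0.62 for Wdr1, 0.637 for Myl6 and 0.767 for Acta1). With A-ADR1 counted, Tpm4 in AJcl at Day 5 overlapped its baseline.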

How the results depend on the processing

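The tally that follows includes the interaction, the contrast that chose the 8 genes, so it is a description and no test of their values. Of the alternative values of the 8 genes, 659 kept their direction and their side of the threshold, 26 became called, 15 lost their call and 20 turned in sign, all of them values that were not called. Between the substrains at baseline they came with all 12 libraries for Tpm4 (-0.000797) and with all 12 but AJcl Day 5 replicate 3 for Tpm4 (-0.00078), and with 1 library left out for Tpm4, Actb and Flna, whose log2FC then ran from -0.0433 to 0.0633, -0.126 to 0.0626 and -0.0190 to 0.258. For Day 5 in AJcl they came with 1 library left out for Tpm1 (-0.0588 to 0.563), Actg1 (-0.419 to 0.165), Actn1 (-0.0663 to 0.397) and Flna (-0.261 to 0.0552), with all 12 but AJcl Day 5 replicate 2 for Actg1 (0.0934) and with all 12 but replicate 3 for Tpm3 (-0.0560) and Actn1 (-0.195). For Day 5 in ByJcl, Tpm2 ran from -0.0189 to 0.147 with 1 library left out.

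The cause of the moves in the counts of called genes was not tested. With all 12 libraries, 72 of all genes and 5 list genes (the other actin cytoskeleton genes) were called between the substrains at Day 5, against 28 and 3. DESeq2 called 101 genes at baseline against 27, 555 genes, 6 of the 8 and 23 list genes at Day 5, 301, 1 and 1 for AJcl, 32 list genes for ByJcl against 21, and 23, 2 and 2 for the interaction, the contrast that chose the 8 genes, so that nothing is read from its count of them. RLE factors gave 1 of the 8 for AJcl. Without the filter the counts were 56 genes and 6 list genes at Day 5, and 99, 1 and 1 for AJcl against 53, 0 and 0. With the replicate block, which rests on numbers that pair nothing, 0 of the 8 and 0 list genes were called at Day 5 and 26 genes for AJcl, and Tpm4 at Day 5 had an adjusted p of 0.117 by edgeR. In fits added after seeing the data, all 12 but AJcl Day 5 replicate 2 gave 15, 0 and 0 at Day 5, and 148 genes and 2 list genes for AJcl, and all 12 but replicate 3 gave 15 genes at baseline, 793, 7 and 17 at Day 5, 22 genes for AJcl and 2 for the interaction.

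Leaving out each library in turn gave 12 to 29 genes at baseline, 9 to 218 at Day 5, 11 to 180 for AJcl, 680 to 2056 for ByJcl and 0 to 5 for the interaction. The ends of the Day 5 and AJcl ranges are fits without AJcl Day 5 replicate 2 or 3, which leave 1 library there, assumed to vary like the other groups. Of the 8 genes it gave 0 to 3 at Day 5, 0 to 1 for AJcl and 3 to 6 for ByJcl, and of the list 0 to 9, 0 to 2 and 9 to 27. The Actb share of actin was 72.3% to 73.1% in AJcl and 72.8% to 75.4% in ByJcl at baseline and 70.0% to 72.8% and 68.7% to 71.2% at Day 5, and the Tpm1 share of tropomyosin 25.9% to 26.5%, 23.1% to 24.0%, 29.8% to 36.0% and 30.0% to 32.1% in the same order. By the longest transcript, Tpm1 made up 28.4% in AJcl and 25.5% in ByJcl at baseline, against 26.1% and 23.5%. With so few libraries a group, a difference that misses the threshold is not shown to be absent.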
